A study of Homo sapiens with 8 samples.

Results

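The transcripts of the hypoxia-inducible factor (HIF) pathway and of hypoxia-induced genes outside glycolysis were examined in RKO cells after A20 siRNA. The set held 36 genes of the 57992 in the deposited counts, and 32 of them passed the filter on low counts that left 13412 genes for testing. The genes were selected by role (HIF subunits, their regulators and known hypoxia-induced genes), with earlier results of this same comparison known, so their differences between the groups are given as a description and no test was made over the set. RKO cells are an established human line derived from a colon carcinoma, and A20, encoded by TNFAIP3, is a ubiquitin-editing enzyme that restrains NFkB signaling. RNAseq was performed on 4 control siRNA samples and 4 A20 siRNA samples. Both groups came from cells grown in DMEM with fetal calf serum and stimulated with 50 ng/mL recombinant human wnt3a for 24 hours. No sample was left without wnt3a, and no exposure to low oxygen is named for any sample, so the values describe the level of these transcripts under ordinary culture. The sources used here do not say whether the 4 samples of a group came from separate cultures, so the p-values measure the spread between these samples, which may be technical.

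HIF is a transcription factor made of an oxygen-regulated alpha subunit, HIF1A or EPAS1, and a stable partner, ARNT. When oxygen is present, prolyl hydroxylases of the EGLN family modify the alpha subunits, VHL binds them for ubiquitination and degradation, and HIF1AN hydroxylates them so that coactivators are not recruited. When oxygen is low the alpha subunits accumulate as proteins, enter the nucleus and bind short ACGTG or GCGTG elements near genes for angiogenesis, pH control, mitophagy, collagen modification and feedback regulation. Much of this control acts on protein and not on the transcripts of the alpha subunits, which RNAseq measures.

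In the A20 siRNA samples 4 of the 32 members tested fell and none rose, judged by edgeR (quasi-likelihood) with p-values adjusted after Benjamini-Hochberg across all tested genes at a threshold of 0.05. The 4 were BHLHE40, a transcriptional repressor, ADM, the precursor of the vasodilator peptide adrenomedullin, NDRG1, a stress-responsive cytoplasmic protein, and BNIP3L, a mitophagy receptor. Their A20 siRNA means were between 77.6% and 85.5% of the control siRNA means. Over all genes tested 0.611% fell and 0.634% rose. At an unadjusted p under 0.05, 10 members were lower and 1 higher, where 7.37% of all genes tested were lower and 8.81% higher. The groups did not overlap in 4 members, which were lower in A20 siRNA, and in no member that was higher, where 3.9% of all genes tested were lower without overlap and 3.71% higher without overlap.

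The number of members that fell depended on single libraries, as did the number of all genes that fell, 82 with every library. Members were 1 of the 7 genes that fell without control siRNA replicate 2, 1 of 6 without A20 siRNA replicate 3, 2 of 26 without control siRNA replicate 3 and 2 of 7 without control siRNA replicate 4. Without control siRNA replicate 1 they were 6 of 430 genes that fell and 2 of 567 that rose. Of the 122 genes DESeq2 called lower 3 were members, BHLHE40, ADM and FAM162A, and none of 83 higher, and it gave adjusted p-values of 0.219 for NDRG1 and 0.122 for BNIP3L.

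Most members outside the HIF subunits and sensors had lower means in A20 siRNA, within the spread of the samples for many. Among the 25 tested members that are not HIF subunits, sensors or inhibitors, 19 had a log2 fold change below 0 and 6 above 0, with a median of -0.043. The median over all 32 members was -0.026, and over all genes tested it was 0.0027, with 48.4% of them below 0. The 3 HIF subunits had log2 fold changes above 0 with none past the test. The summed level of the members that are not subunits, sensors or inhibitors was 1463 to 1512 CPM (the reads of a gene scaled to the size of its library) in the control siRNA samples and 1349 to 1455 in the A20 siRNA samples. This sum weighs abundant genes most and includes the members past the threshold. Mean CPM in control siRNA and A20 siRNA was 153 and 131 for BHLHE40, 105.5 and 81.8 for NDRG1, 68.5 and 58.6 for BNIP3L, and 14.7 and 11.7 for ADM.

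**Figure D1:**
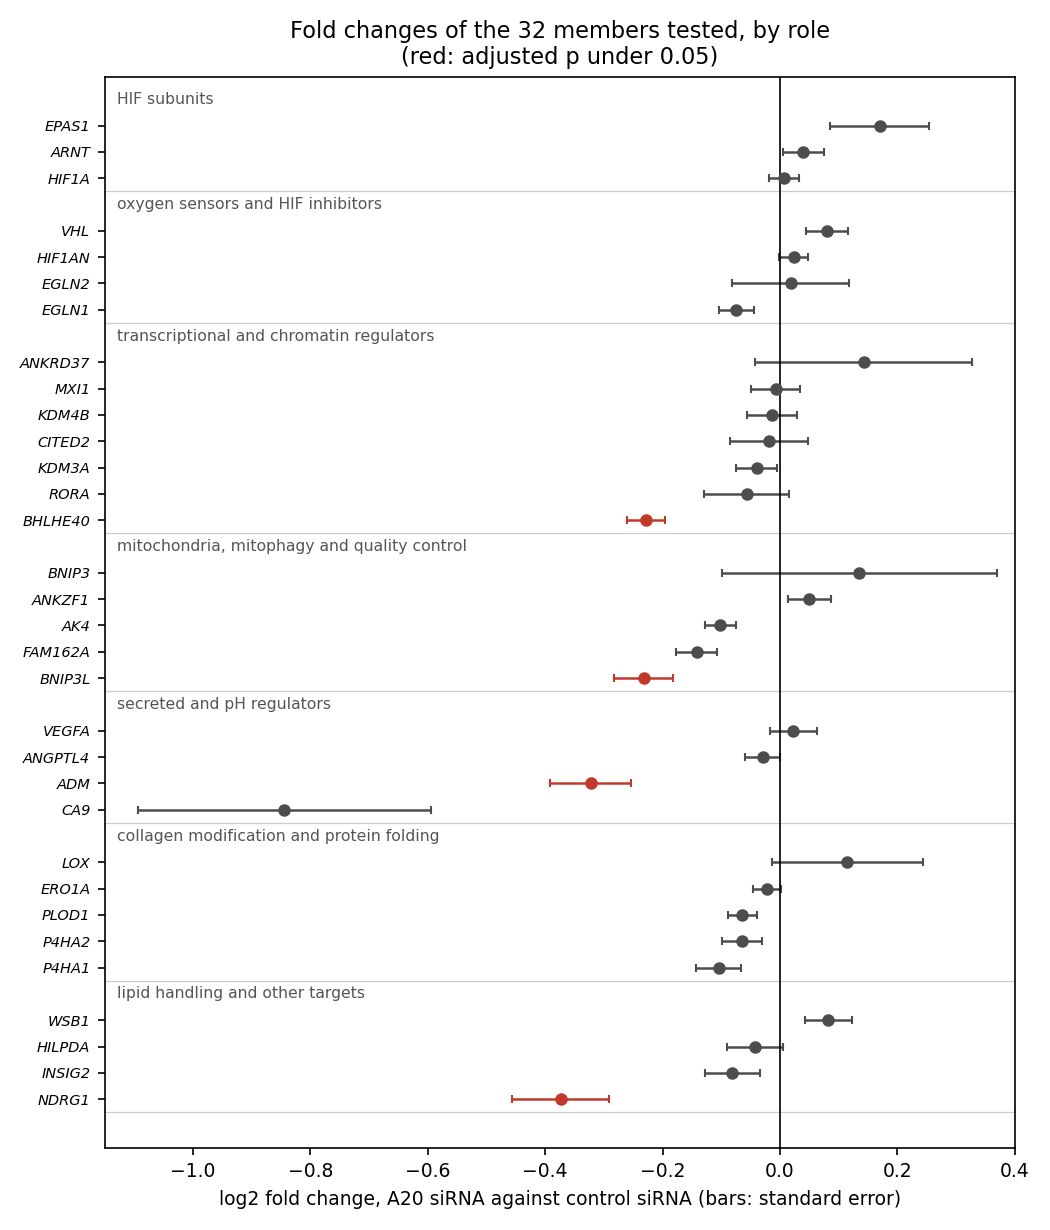
Log2 fold change of each of the 32 tested members, A20 siRNA against control siRNA, with bars for the standard error of the edgeR fit and genes grouped by role. The 4 red points mark the members past the adjusted p of 0.05, all left of 0, and CA9 lies farthest left at -0.84 with a standard error of 0.25.

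The libraries held 21226451 to 34194273 counted reads, so that 3 reads corresponded to 0.0875 to 0.141 CPM. TNFAIP3, the gene targeted by the siRNA, was at 4.92, 5.83, 5.59 and 5.54 CPM in the control siRNA samples and at 3.47, 3.01, 3.40 and 3.43 CPM in the A20 siRNA samples, a log2 fold change of -0.71 (SE 0.095, edgeR's quasi-likelihood test, Benjamini-Hochberg adjusted p = 0.0026). Of 13 colon epithelial markers 4 passed the filter, EPCAM, KRT8, KRT18 and CDX2, while CDH1, KRT19, KRT20 and CDX1 had no read in any sample. Fibroblast markers summed to at most 0.143 CPM and endothelial markers to at most 0.0998 CPM, and leukocyte markers summed to 0.822 to 1.44 CPM in control siRNA and 0.778 to 1.27 CPM in A20 siRNA samples, nearly all of it CD68. As in any bulk RNA measurement, fewer cells with a transcript and less of it per cell cannot be told apart. The share of reads from mitochondrial genes was 1.28% to 1.56% in control siRNA and 1.65% to 1.79% in A20 siRNA samples, without overlap. The rank correlation of a library's deviations from the mean with exonic length was 0.079, -0.164, -0.111 and -0.2 in the control siRNA replicates and 0.069, -0.082, 0.144 and 0.178 in the A20 siRNA replicates, negative in 3 of 4 controls and positive in 3 of 4 A20 siRNA samples. The part of the mitochondrial share in the results was not tested. With a correction for length and GC content members were 6 of the 236 genes that fell and none of the 97 that rose, and without control siRNA replicate 1 and A20 siRNA replicate 2, whose trend had the opposite sign to the rest of their group, they were 5 of the 483 that fell and 2 of the 614 that rose, VHL and WSB1.

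HIF1A, the alpha subunit expressed in most cells, was at 180.4, 178, 181 and 174 CPM in control siRNA and at 173, 177, 186.5 and 182 CPM in A20 siRNA samples. A20 siRNA replicate 2 lay within the control range, replicate 1 below it and replicates 3 and 4 above it, and the log2 fold change was 0.0075 (SE 0.026). EPAS1, which encodes HIF-2 alpha, was at 6.75, 5.91, 7.72 and 6.17 CPM in control siRNA and at 7.49, 7.27, 7.13 and 8.13 CPM in A20 siRNA samples, with a log2 fold change of 0.17 (SE 0.085, edgeR's quasi-likelihood test, Benjamini-Hochberg adjusted p = 0.332). Control siRNA replicate 3 lay within the A20 siRNA range for EPAS1, and the other 3 control values lay below it.

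ARNT, the shared partner subunit, was at 51.1, 49.0, 52.2 and 48.7 CPM in control siRNA and at 51.3, 49.5, 52.1 and 54.4 CPM in A20 siRNA samples, a log2 fold change of 0.040 (SE 0.035). None of the 3 subunits had an unadjusted p under 0.05. Per kilobase of exonic length, HIF1A stood at 34.6 CPM and EPAS1 at 0.910 CPM in the control siRNA samples, so HIF1A was the far more abundant alpha subunit transcript, also per kilobase of the canonical transcript (45.2 against 1.29 CPM).

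Among the oxygen sensors and inhibitors none of the 4 tested members passed the adjusted threshold. VHL, the substrate receptor of the ubiquitin ligase for HIF alpha, was at 74.4, 68.8, 64.2 and 69.3 CPM in control siRNA and at 73.1, 71.5, 75.4 and 72.9 CPM in A20 siRNA samples. Its values in A20 siRNA lay close together, and control siRNA replicate 1 lay inside their range. The log2 fold change was 0.080 (SE 0.036, edgeR's quasi-likelihood test, Benjamini-Hochberg adjusted p = 0.28), and without control siRNA replicate 1 it was 0.12 with an adjusted p of 0.032 in the same test.

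EGLN1, the main prolyl hydroxylase for HIF1A, was at 130.5, 139, 135 and 135 CPM in control siRNA and at 126, 121, 131 and 135 CPM in A20 siRNA samples, a log2 fold change of -0.074 (SE 0.030, edgeR's quasi-likelihood test, Benjamini-Hochberg adjusted p = 0.224). The A20 siRNA replicates 3 and 4 lay within the control range. HIF1AN, the asparaginyl hydroxylase, was at 102, 96.5, 100.3 and 102 CPM in control siRNA and at 102, 100.3, 101 and 103 CPM in A20 siRNA samples, and the groups overlapped.

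EGLN2, a second prolyl hydroxylase, was at 5.55, 5.56, 6.17 and 4.99 CPM in control siRNA and at 6.27, 6.19, 5.08 and 4.70 CPM in A20 siRNA samples, and the groups overlapped. Its level is uncertain, because 2012 bases, 30.6% of its exonic bases, belong also to the readthrough gene RAB4B-EGLN2 on the same strand. RAB4B-EGLN2 has no read in any sample, and the canonical EGLN2 transcript is 2100 bases long. If reads in shared bases were counted for neither gene, the EGLN2 values are too low. EGLN3, the prolyl hydroxylase that is itself a hypoxia-induced gene, had 1 to 7 reads per library (5, 4, 2 and 3 in control siRNA, 7, 3, 3 and 1 in A20 siRNA), did not pass the filter and was not tested. Per kilobase of exonic length EGLN1 stood at 25.1 CPM in the control siRNA samples, EGLN2 at 0.847 and EGLN3 at 0.0179. Per kilobase of the canonical transcript they stood at 31.1, 2.65 and 0.0487 CPM. The distance between EGLN1 and EGLN2 carries the same uncertainty from the shared bases.

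BHLHE40, a basic helix-loop-helix repressor that links hypoxia and the circadian clock, fell whichever library was left out. It was at 148, 164, 153 and 148 CPM in control siRNA and at 126, 134, 129 and 135 CPM in A20 siRNA samples. Every A20 siRNA value lay below every control value, and the mean fell from 153 ± 7.87 to 131 ± 4.38 CPM (SD, n = 4), 85.5% of control. The log2 fold change was -0.23 (SE 0.032, edgeR's quasi-likelihood test, Benjamini-Hochberg adjusted p = 0.0027), and it passed the threshold in each of the 8 fits that left out 1 library, with values from -0.25 to -0.19 and a highest adjusted p of 0.023. The gene (ENSG00000134107.4, chr3:4979437-4985323, GRCh38) shares 12.8% of its exonic bases with the antisense transcript BHLHE40-AS1, which was at 0.0772 to 0.322 CPM.

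None of the other 6 transcriptional and chromatin regulators had an unadjusted p under 0.05. MXI1, a MYC antagonist, was at 27.0 to 29.4 CPM in control siRNA and at 26.8 to 29.2 CPM in A20 siRNA samples, a log2 fold change of -0.0074. CITED2, which competes with HIF for the coactivators CBP and p300, was at 12.4 to 14.7 CPM and 12.5 to 14.8 CPM, a log2 fold change of -0.019. The nuclear receptor RORA was at 7.87 to 9.41 CPM and 7.84 to 8.32 CPM, a log2 fold change of -0.056. The groups overlapped for these 3 and for the histone lysine demethylases KDM3A, at 54.7 to 59.9 CPM and 53.3 to 58.0 CPM, and KDM4B, at 38.5 to 44.7 CPM and 39.9 to 42.4 CPM, with log2 fold changes of -0.040 and -0.014. ANKRD37 had a log2 fold change of 0.14 (SE 0.19). ANKRD37 was low, at 1.00 to 1.69 CPM, and shares 40.3% of its exonic bases with UFSP2 on the other strand, which was at 19.2 to 21.6 CPM. Whether its reads could be told from those of UFSP2 depends on a strand setting that is not given in the sources used here.

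The bases before the start of BHLHE40, ADM and CA9 are given with matches to the core of the hypoxia response element marked. Whether the matches bear on the levels of these genes was not tested. BHLHE40 and ADM were taken as members past the adjusted threshold that have a start site in the table used, and CA9, a textbook HIF target, was added after its values were seen. Each run is the 250 bases before the RefSeq start on the plus strand of GRCh38.p14, with capitals for ACGTG or GCGTG on either strand (CACGT and CACGC when read on the other strand), and CACGTG holds a match on each strand that overlap.
BHLHE40, chr3:4979187-4979436: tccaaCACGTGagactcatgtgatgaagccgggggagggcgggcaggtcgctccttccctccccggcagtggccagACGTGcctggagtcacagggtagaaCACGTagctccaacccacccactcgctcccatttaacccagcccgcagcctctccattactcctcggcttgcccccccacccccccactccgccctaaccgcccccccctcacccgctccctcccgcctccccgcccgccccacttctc
ADM, chr11:10304823-10305072: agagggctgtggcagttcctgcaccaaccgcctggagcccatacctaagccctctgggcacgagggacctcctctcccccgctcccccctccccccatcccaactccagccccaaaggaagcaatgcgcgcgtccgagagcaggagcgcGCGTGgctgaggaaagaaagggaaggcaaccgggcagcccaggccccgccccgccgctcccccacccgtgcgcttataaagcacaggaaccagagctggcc
CA9, chr9:35673678-35673927: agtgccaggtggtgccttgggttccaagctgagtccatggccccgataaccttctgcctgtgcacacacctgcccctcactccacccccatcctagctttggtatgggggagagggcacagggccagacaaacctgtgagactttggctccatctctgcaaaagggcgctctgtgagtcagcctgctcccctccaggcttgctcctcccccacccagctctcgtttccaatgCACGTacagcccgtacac
BHLHE40 held 4 matches, a CACGTG that counts for both strands and 1 more on each strand, the nearest beginning 149 bases before the start. ADM held 1 match, beginning 101 bases before the start, and CA9 held 1 match, beginning 18 bases before it.

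Of the 36 members, 30 were matched to a promoter in the table, and 25 of them (83.3%) held at least 1 ACGTG or GCGTG between 250 bases before and 50 after a start. Among the members that are not subunits, sensors or inhibitors it was 21 of 23 (91.3%). The share was 52.4% of 27305 genes in the table and 71.4% of the 9866 among them that passed the filter here. Because hypoxia-induced genes were chosen as such, these shares are a description of the list, and a match of 5 letters is not evidence of binding.

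Of the 5 members that act in mitochondria, 3 had an unadjusted p under 0.05 and all 3 were lower in A20 siRNA, where 7.37% of all genes tested were lower by that measure. BNIP3L, the mitophagy receptor also called NIX, was at 68.6, 67.5, 66.4 and 71.3 CPM in control siRNA and at 58.0, 52.4, 56.3 and 67.6 CPM in A20 siRNA samples. A20 siRNA replicate 4 lay inside the control range and the other 3 lay well below it. The log2 fold change was -0.23 (SE 0.050, edgeR's quasi-likelihood test, Benjamini-Hochberg adjusted p = 0.033). The adjusted p rose to 0.121 without A20 siRNA replicate 3, 0.0908 without control siRNA replicate 2, 0.0725 without control siRNA replicate 3 and 0.122 without control siRNA replicate 4 in the same test, with log2 fold changes from -0.30 to -0.18 over the 8 fits.

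FAM162A, a mitochondrial protein linked to hypoxic cell death, was at 68.8, 70.9, 68.0 and 75.0 CPM in control siRNA and at 66.0, 60.7, 63.1 and 66.1 CPM in A20 siRNA samples. The groups did not overlap, but the log2 fold change of -0.14 (SE 0.035) just missed the threshold (edgeR's quasi-likelihood test, Benjamini-Hochberg adjusted p = 0.051) and passed it in DESeq2 (adjusted p = 0.034). AK4, an adenylate kinase of the mitochondrial matrix, was at 96.3, 96.5, 94.9 and 98.5 CPM in control siRNA and at 90.5, 87.3, 88.9 and 93.4 CPM in A20 siRNA samples. These groups did not overlap either, with a log2 fold change of -0.10 (SE 0.027, edgeR's quasi-likelihood test, Benjamini-Hochberg adjusted p = 0.06).

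BNIP3, the paralog of BNIP3L and a classical HIF1 target, was low, with 20 to 47 reads per library and a log2 fold change of 0.14 (SE 0.23). Its standard error was as large as the difference of BNIP3L, so a difference of that size was not detectable for BNIP3 at this depth. ANKZF1, which acts in ribosome and mitochondrial quality control, was at 29.3 to 29.9 CPM in control siRNA and at 29.6 to 31.7 CPM in A20 siRNA samples, with a log2 fold change of 0.050 (SE 0.037).

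**Figure D2:**
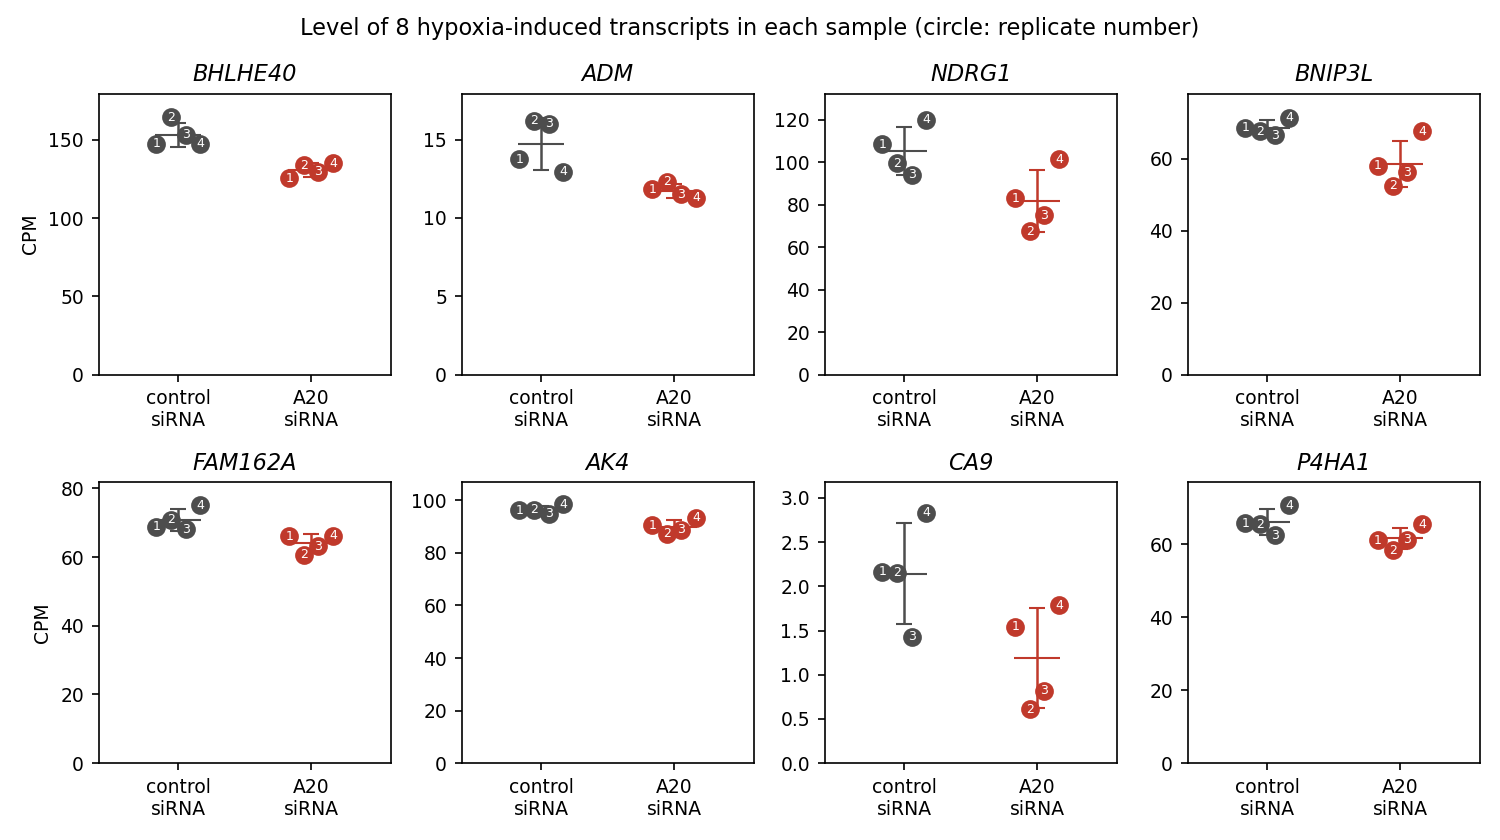
CPM of 8 hypoxia-induced transcripts in each of the 8 samples, with the replicate number in each circle and lines for the group mean and SD (n = 4). BHLHE40, ADM, FAM162A and AK4 show no overlap between control siRNA and A20 siRNA. A20 siRNA replicate 4 is the highest of its group for every gene shown but ADM.

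ADM, whose peptide product widens blood vessels, was the 1 member among the secreted factors and pH regulators that passed the threshold. It was at 13.7, 16.2, 16.0 and 12.9 CPM in control siRNA and at 11.8, 12.3, 11.5 and 11.3 CPM in A20 siRNA samples, without overlap. The mean fell to 79.7% of control, a log2 fold change of -0.32 (SE 0.069, edgeR's quasi-likelihood test, Benjamini-Hochberg adjusted p = 0.033). The call was lost without control siRNA replicate 2 (adjusted p = 0.117), control siRNA replicate 3 (0.106), A20 siRNA replicate 3 (0.114) or A20 siRNA replicate 4 (0.0857), while the log2 fold change in the 8 such edgeR fits stayed between -0.38 and -0.28. The gene (ENSG00000148926.9) lies at chr11:10305073-10307397 (GRCh38).

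CA9, the membrane carbonic anhydrase that controls extracellular pH and is used as a hypoxia marker, had the largest fold change of the 32 tested members and few reads. It was at 2.16, 2.15, 1.43 and 2.83 CPM in control siRNA and at 1.54, 0.609, 0.819 and 1.79 CPM in A20 siRNA samples, from 17 to 67 reads per library. The groups overlapped through A20 siRNA replicates 1 and 4, and the mean in A20 siRNA was 55.5% of control, with a log2 fold change of -0.84 (SE 0.25, edgeR's quasi-likelihood test, Benjamini-Hochberg adjusted p = 0.093). CA9 shares 35.7% of its exonic bases with ARHGEF39 on the other strand, at 7.14 to 7.58 CPM, so its count is uncertain. With no low-count filter the same test gave an adjusted p of 9e-05, it passed in none of the 8 fits that left out 1 library (highest adjusted p = 0.291, without control siRNA replicate 4), and DESeq2 gave no adjusted p.

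VEGFA, the principal angiogenic growth factor induced by HIF, was at 39.6 to 44.5 CPM in control siRNA and at 41.0 to 44 CPM in A20 siRNA samples, a log2 fold change of 0.023 (SE 0.040). ANGPTL4, an inhibitor of lipoprotein lipase, was at 79.2 to 86.1 CPM and 80.2 to 82.6 CPM, with a log2 fold change of -0.030 (SE 0.029). The groups of both genes overlapped. STC2, a secreted glycoprotein, had no read in any of the 8 samples, which allows up to 0.0875 to 0.141 CPM per library by counting error alone.

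None of the 5 tested members that modify collagen or fold secreted proteins passed the adjusted threshold. Of the 5, 4 had log2 fold changes below 0, where 48.4% of all genes tested lay below 0. P4HA1, a catalytic subunit of the collagen prolyl hydroxylase, was at 65.7, 65.5, 62.4 and 70.7 CPM in control siRNA and at 61.1, 58.4, 61.2 and 65.5 CPM in A20 siRNA samples, a log2 fold change of -0.10 (SE 0.038, edgeR's quasi-likelihood test, Benjamini-Hochberg adjusted p = 0.174). Its A20 siRNA replicate 4 lay within the control range. PLOD1, a collagen lysyl hydroxylase, was at 189, 197, 192 and 200.1 CPM in control siRNA and at 190.3, 184, 181 and 189 CPM in A20 siRNA samples, a log2 fold change of -0.064 (SE 0.025, edgeR's quasi-likelihood test, Benjamini-Hochberg adjusted p = 0.201), and the groups overlapped through A20 siRNA replicate 1.

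P4HA2, another catalytic subunit, was at 47.0 to 50.9 CPM in control siRNA and at 45.7 to 48.2 CPM in A20 siRNA samples, a log2 fold change of -0.065. ERO1A, the oxidase that feeds disulfide formation, was at 241 to 252 CPM and 238 to 250.3 CPM, a log2 fold change of -0.022. LOX, the collagen crosslinking oxidase, was at 1.80 to 2.39 CPM and 2.29 to 2.51 CPM, from 46 to 86 reads per library, with a log2 fold change of 0.11 (SE 0.13). The groups overlapped for these 3. LOX shares 2.47% of its exonic bases with SRFBP1 on the other strand, which was at 162 to 176 CPM, so the LOX count is uncertain. PLOD2, the lysyl hydroxylase commonly described as hypoxia-induced, had no read in any of the 8 samples.

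NDRG1, known as a stress-responsive protein that hypoxia induces, had the largest fold change among the members past the threshold. It was at 108, 99.5, 94.0 and 119.9 CPM in control siRNA and at 83.1, 67.6, 75.1 and 102 CPM in A20 siRNA samples. A20 siRNA replicate 4 lay above control siRNA replicates 2 and 3, and the other A20 siRNA values lay below every control value. The mean fell from 105 ± 11.3 to 81.8 ± 14.6 CPM (SD, n = 4), 77.6% of control, with a log2 fold change of -0.37 (SE 0.083, edgeR's quasi-likelihood test, Benjamini-Hochberg adjusted p = 0.034). The adjusted p was 0.121 without A20 siRNA replicate 3, 0.0827 without control siRNA replicate 2 and 0.141 without control siRNA replicate 4 in the same test, and the log2 fold change lay between -0.48 and -0.29 over the 8 fits.

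HILPDA, a lipid droplet protein that inhibits triglyceride breakdown, was at 21.4 to 24.7 CPM in control siRNA and at 21.1 to 23.1 CPM in A20 siRNA samples, a log2 fold change of -0.043 (SE 0.048). INSIG2, which retains the sterol sensor SCAP in the endoplasmic reticulum, was at 27.2 to 30.4 CPM and 25.5 to 28.7 CPM, a log2 fold change of -0.081 (SE 0.046), and the groups of both genes overlapped. WSB1, a subunit of an E3 ubiquitin ligase that acts on VHL, was at 56.7 to 65.9 CPM in control siRNA and at 61.5 to 66.6 CPM in A20 siRNA samples. It had a log2 fold change of 0.083 (SE 0.040, edgeR's quasi-likelihood test, Benjamini-Hochberg adjusted p = 0.322), and without control siRNA replicate 1 it was 0.12 with an adjusted p of 0.041 in the same test. VLDLR, a lipoprotein receptor, had 0 to 2 reads per library and was not tested.

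The members differed in how they varied between the libraries of a group. The coefficient of variation of NDRG1 was 10.7% in control siRNA and 17.8% in A20 siRNA, and that of BNIP3L was 3.07% and 11%. It was 5.14% and 3.35% for BHLHE40, and 1.76% and 3.33% for HIF1A. CA9 had 26.8% and 47.5%, which at 17 to 67 reads per library include a large counting error. NDRG1, BNIP3L and CA9, which were singled out after their values were seen, had the same order of libraries: replicate 4 highest, then 1, 2 and 3 in control siRNA, and replicate 4 highest, then 1, 3 and 2 in A20 siRNA. For CA9 control siRNA replicates 1 and 2 were nearly tied. Of the 32 members tested 3 had this full order, as did 0.186% of all genes tested. Replicate 4 was highest in both groups in 7 of the 32, where 6.06% of all genes tested showed this. Besides these 3 genes they were AK4, FAM162A, INSIG2 and P4HA1. Because the order was taken from these same values, it is a description and was not tested.

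**Figure D3:**
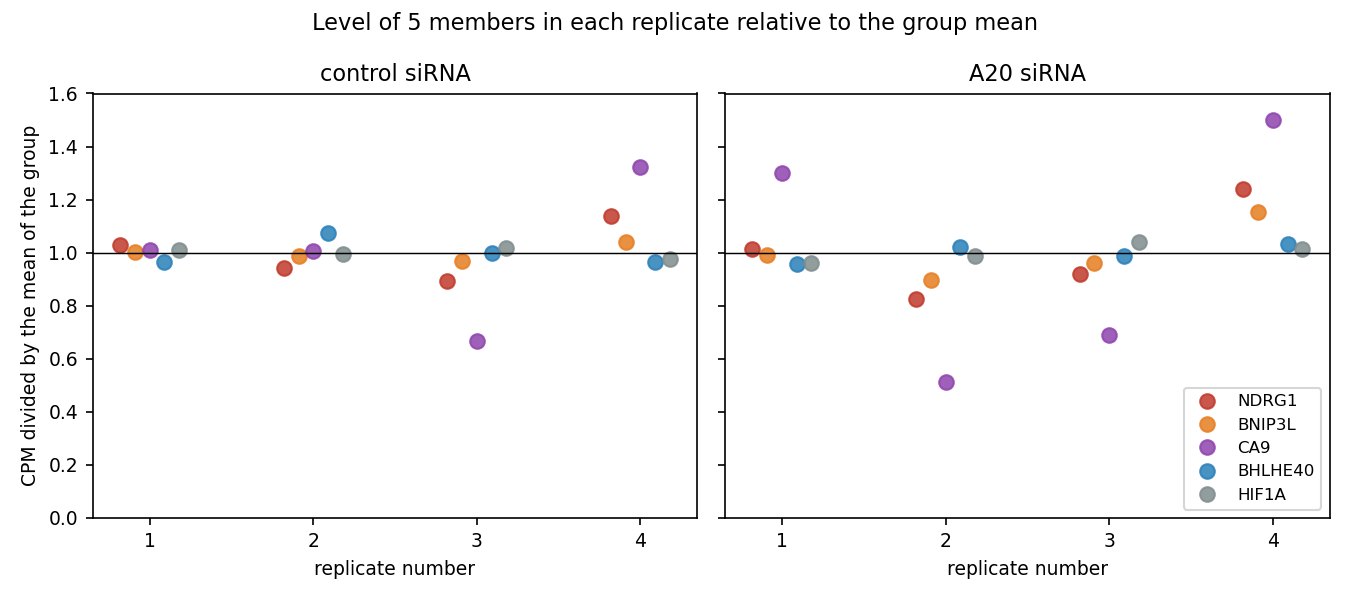
CPM of NDRG1, BNIP3L, CA9, BHLHE40 and HIF1A in each replicate divided by the mean of its group, for control siRNA (left) and A20 siRNA (right), with points shifted sideways by gene. NDRG1, BNIP3L and CA9 stand highest in replicate 4 of both groups, while HIF1A stays near 1 in every replicate.

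The level of the tested members per kilobase of exonic length spanned a wide range in the control siRNA samples, from 0.259 CPM for BNIP3 to 43.6 CPM for BHLHE40. After BHLHE40 the highest were PLOD1 at 36.6, HIF1A at 34.6, ANGPTL4 at 33.5 and ERO1A at 32.9 CPM per kilobase. The order depended on the length used: NDRG1 was at 8.79 per kilobase of all exonic bases and at 34.9 per kilobase of its canonical transcript. By canonical length PLOD1 was highest at 65.4, above BHLHE40 at 48.6, and LOX was lowest at 0.434, below BNIP3 at 0.679. Of the 10 highest members 8 remained among the 10 highest under the canonical length. CA9 was at 1.34 and LOX at 0.394 CPM per kilobase, near the lower end.

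**Figure D4:**
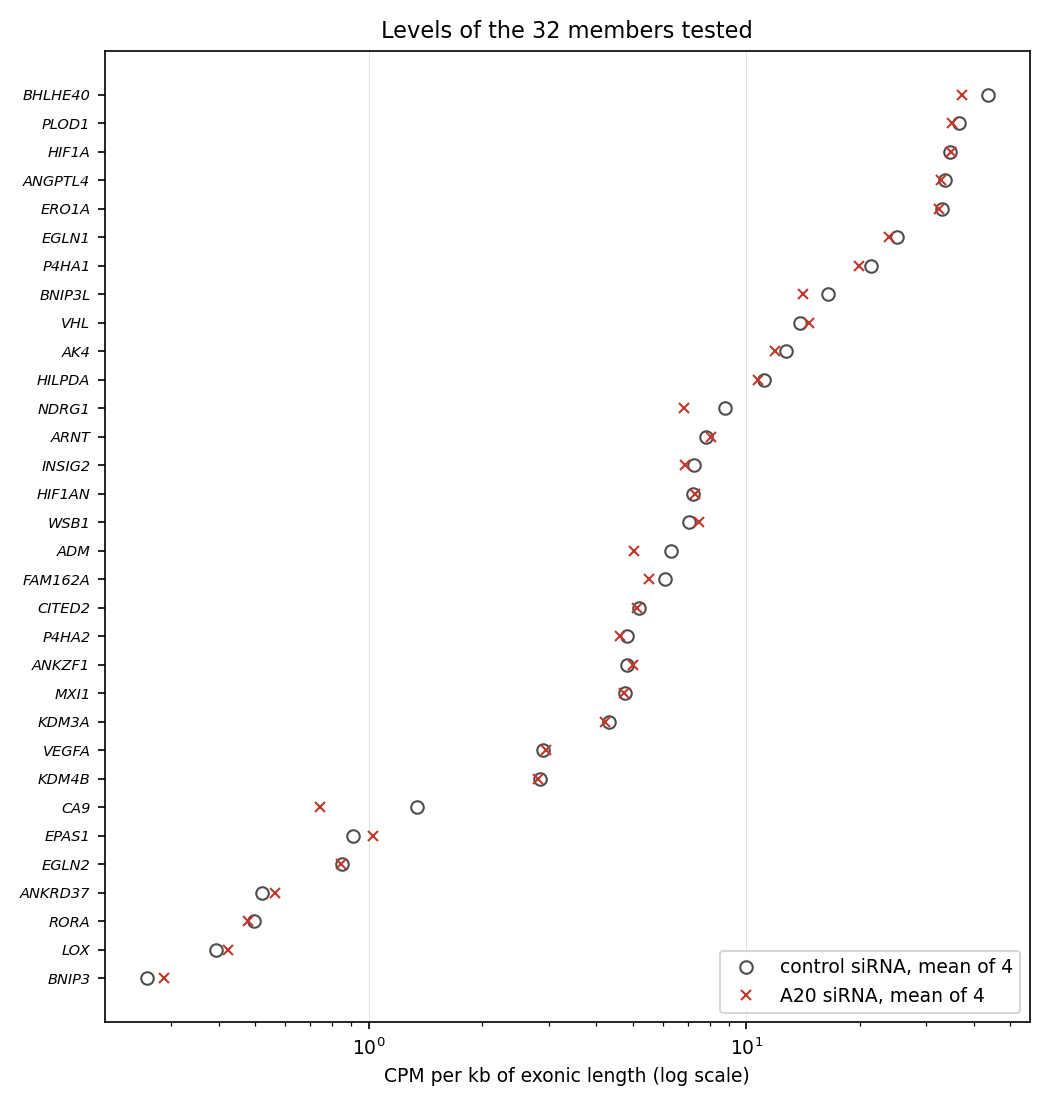
Mean CPM per kilobase of exonic length of the 32 tested members on a log axis, for control siRNA (circles) and A20 siRNA (crosses), ordered by control level. The crosses lie close to the circles for most genes, and CA9 and NDRG1 show the widest gaps toward lower levels.

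A list of 17 further HIF pathway components, of which 16 were tested, held 2 that fell at the adjusted threshold and none that rose. Over all genes tested 0.611% fell and 0.634% rose. At an unadjusted p under 0.05 the list held 3 lower and 2 higher, where 7.37% of all genes tested were lower and 8.81% higher. The 2 that fell were ELOB and ELOC, the elongin B and C adaptors that join VHL to its cullin. ELOB was at 141, 148, 141 and 157 CPM in control siRNA and at 135, 139, 128 and 123 CPM in A20 siRNA samples, a log2 fold change of -0.15 (SE 0.037, edgeR's quasi-likelihood test, Benjamini-Hochberg adjusted p = 0.044). ELOC was at 159, 164, 160.5 and 163 CPM in control siRNA and at 153, 150.2, 151 and 144 CPM in A20 siRNA samples, a log2 fold change of -0.11 (SE 0.024, edgeR's quasi-likelihood test, Benjamini-Hochberg adjusted p = 0.033). The groups did not overlap for either gene, where 3.9% of all genes tested were lower without overlap. Each was called in 3 of the 8 fits that left out 1 library and lost without A20 siRNA replicate 3, A20 siRNA replicate 4, control siRNA replicate 2, control siRNA replicate 3 or control siRNA replicate 4, with highest adjusted p-values of 0.177 for ELOB and 0.117 for ELOC in the same test. The median log2 fold change of the 16 was -0.0085.

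A list of 50 other hypoxia-induced genes, of which 34 were tested, held none past the adjusted threshold in edgeR and 1 in DESeq2. At an unadjusted p under 0.05 it held 6 lower and 1 higher, where 7.37% of all genes tested were lower and 8.81% higher. The groups did not overlap in 4 that were lower and 1 that was higher, against 3.9% and 3.71% of all genes tested, and the median log2 fold change was -0.034. The 3 with the smallest p were ERRFI1, a feedback inhibitor of EGFR, with a log2 fold change of -0.19 (edgeR's quasi-likelihood test, Benjamini-Hochberg adjusted p = 0.051), DDIT4, an inhibitor of mTORC1, with -0.40 (adjusted p = 0.079 in the same test), and TMEM45A, a membrane protein, with -0.19 (adjusted p = 0.106). DDIT4 was at 4.32, 5.36, 4.47 and 4.02 CPM in control siRNA and at 3.00, 3.69, 3.85 and 3.39 CPM in A20 siRNA samples, without overlap.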

How the data were processed

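RNA was measured in 8 samples of RKO cells by poly(A)-selected, single-read RNAseq. The authors deposited raw counts of uniquely mapping reads per gene, made with Trimmomatic and STAR on GRCh38.p7 with a GENCODE annotation, and named DESeq2 for their own comparison. The annotation release and the strand setting are not given in the sources used here. The labels gave each sample's group and replicate number. Totals ran from 21226451 to 34194273 reads per sample, and 3 reads, the floor used for a count of 0, equalled 0.0875 to 0.141 CPM. Floors cover counting error only.

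Of 57992 genes, 29238 had no count in any sample, and 13412 passed filterByExpr with a minimum count of 10. They were fitted with TMM normalization and edgeR's quasi-likelihood test (edgeR 4.0.16, R 4.3.3), with Benjamini-Hochberg adjustment over all 13412 and a threshold of 0.05. CPM values use TMM-scaled library sizes. The biological coefficient of variation was 2.73%. Symbols, lengths and coordinates came from GENCODE 44 (56948 genes matched), and 99.3% of tested genes had a length. Promoters came from RefSeq on GRCh38.p14, and a gene with several starts counted as holding a match if any start did.

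The members and lists were chosen with earlier results of these data known. The values of every sample are given for HIF subunits, sensors and inhibitors, and members with an unadjusted p under 0.05, and the range in each group or the counts for the other members. Of the other lists, genes past the adjusted threshold are named, otherwise the 3 of smallest p. DDIT4 sample values were added after they were seen. Proteins and sequences of chromosome 8 are not reported here. The fit was tested on counts simulated from its own means and dispersions, without a length trend or a replicate effect. That check does not cover such effects in the real libraries.

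Alternatives were RLE normalization, 2 other low-count filters, DESeq2 1.42.0, limma-voom (limma 3.58.1), a replicate block, a correction for length and GC content (loess, span 0.5), both together, each library left out in turn, and control replicate 1 with A20 siRNA replicate 2 left out. Levels per kilobase were repeated with the longest transcript and, added after the data were seen, the canonical transcript. The promoter share was repeated with 250 bases before the start only. The study's western blots and reporter assays were not analysed here.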

Additional observations from a re-analysis of the deposited data

Results flagged for a closer look

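In 3 groups of 4 samples, 1 sample stood apart from the other 3 by Dixon's criterion, in which the gap to the nearest sample is divided by the range of the group and set against the 95% critical value for 4 samples. The criterion was applied to 66 groups, and chance flags about 1 in 20, or 3.3 groups here. CITED2 was at 14.8 CPM in A20 siRNA replicate 3 and at 12.5 to 12.7 CPM in the other A20 siRNA samples (ratio 0.928). LOX was at 1.80 CPM in control siRNA replicate 2 and at 2.29 to 2.39 CPM in the other control siRNA samples (ratio 0.836). TNFAIP3 was at 3.01 CPM in A20 siRNA replicate 2 and at 3.40 to 3.47 CPM in the other A20 siRNA samples (ratio 0.847).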

How the results depend on the processing

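Counts of calls moved with the settings, and the cause was not tested. Over all genes 82 fell and 85 rose. It was 310 and 314 with no low-count filter, 212 and 262 with the replicate block, 236 lower with the length and GC correction, 410 and 197 with the replicate block and that correction, 483 and 614 without control replicate 1 and A20 siRNA replicate 2, and 6 to 430 lower and 6 to 567 higher when 1 library was left out. Members that fell numbered 8 with no low-count filter, 7 with the replicate block (the 4 with FAM162A, AK4 and CA9), 8 with the replicate block and the correction, and 1 to 6 when 1 library was left out. Members that rose numbered 2 without both libraries and 0 to 2 when 1 was left out, and the median of the members lay between -0.059 and -0.021. Calls among other HIF components numbered 4 with no filter, 6 without both libraries and 0 to 4 when 1 was left out. Calls among other hypoxia-induced genes numbered 1 with DESeq2, 1 with RLE, 1 with limma-voom, 2 with the correction, 4 with no filter, 2 with the replicate block, 6 with the replicate block and the correction, 3 without both libraries and 0 to 4 when 1 was left out.

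The labels name no pairing, and the replicate numbers were not treated as pairs in the main fit. Deviations of same-numbered samples correlated at -0.01 to 0.084. Of the 8 samples 4 correlated best with their own number among the 4 samples of the other group. These values do not settle whether same-numbered samples belong together. With the replicate block, BHLHE40 had a log2 fold change of -0.23, CA9 of -0.85 (edgeR adjusted p = 0.013, and 0.013 with the correction) and TNFAIP3 of -0.71.

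TNFAIP3 and BHLHE40 kept their direction and call under the alternatives run, except that DESeq2 gave TNFAIP3 no adjusted p. Signs turned in genes that passed no test. EGLN2 was at -0.034 without both libraries, -0.0058 with the correction and -0.013 with the block and correction. HIF1A was at -0.0034 and -0.0037, and HIF1AN at -0.018 and -0.017, under the correction without and with the block. VEGFA was at -0.0024 without both libraries and at -0.030 and -0.028 under the correction without and with the block, and RORA at 0.023 without both libraries. With 1 library left out the ranges were -0.066 to 0.25 for ANKRD37, -0.012 to 0.29 for BNIP3, -0.076 to 0.030 for CITED2, -0.055 to 0.079 for EGLN2, -0.012 to 0.024 for HIF1A, -0.057 to 0.017 for KDM4B, -0.028 to 0.012 for MXI1, -0.091 to 0.0035 for RORA and -0.0073 to 0.054 for VEGFA. Depth limits CA9, BNIP3, ANKRD37 and LOX, whose lowest counts were 17, 20, 24 and 46 reads.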
